A study of Mus musculus with 24 samples.

Results

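The 9 genes described here carry nitrogen from ammonia to arginine, ornithine and the polyamines, and are 9 of the 55487 genes in the deposited count table. They are the arginases Arg1 and Arg2, the urea cycle enzymes Cps1, Ass1 and Asl, the ornithine decarboxylase gene Odc1, the polyamine synthase genes Srm and Sms, and Sat1, which starts polyamine breakdown. They were found by their symbols in the table, and they were chosen by their measured levels across the same 8 groups of libraries. Their differences between groups are therefore a description and carry no p-value.

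Bulk RNA was sequenced from Myc-CaP cells, an epithelial tumour line from the mouse prostate labelled as overexpressing MYC, after 6 days of continuous treatment with drug and medium renewed every 3 days. All groups were grown in DMEM with foetal bovine serum and hold 3 libraries each. Controls received DMSO, the solvent. The kinase inhibitors were 500 nM PF-06873600, which acts on CDK2, CDK4 and CDK6, 1 µM palbociclib, which acts on CDK4 and CDK6, and 500 nM alisertib, which acts on Aurora A. The group T/P was read as 25 nM trametinib, a MEK inhibitor, with 1 µM palbociclib, because trametinib is listed for no other group. The other drugs were docetaxel (3.75 µM), a stabiliser of microtubules, etoposide (500 nM), a poison of topoisomerase II, and Nutlin (500 nM), which frees p53 from MDM2. The cells are 1 line. Nothing in the labels says that the libraries of a group were grown as separate cultures.

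In the urea cycle, CPS1 joins ammonia and bicarbonate to carbamoyl phosphate in mitochondria, and ornithine transcarbamylase turns this and ornithine into citrulline. ASS1 and ASL then make arginine from citrulline and aspartate, and arginase splits arginine into urea and ornithine. The whole cycle runs in liver, while most other tissues hold only parts of it. Ornithine is also the substrate of ODC1, the textbook MYC target that makes putrescine. SRM and SMS extend putrescine to spermidine and spermine, and SAT1 acetylates these for export or oxidation. The prostate gland is known for its very high polyamine content.

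Promoter windows of 250 bases before and 50 after the transcript start were at hand for Ass1, Odc1, Sms and Sat1, 4 of the 9 genes, from RefSeq on GRCm38.p6. Those of Ass1 and Odc1 are shown because their group means lay on opposite sides of DMSO in the treated cells. Ass1 with palbociclib and T/P, and Odc1 with Nutlin, overlapped the controls. Capitals mark CACGTG, the letters of the E-box that MYC binds, and GGGCGG, the letters of the GC box, each read on both strands. Neither motif's matches overlap here.
Ass1, chr2:31470020-31470319, plus strand: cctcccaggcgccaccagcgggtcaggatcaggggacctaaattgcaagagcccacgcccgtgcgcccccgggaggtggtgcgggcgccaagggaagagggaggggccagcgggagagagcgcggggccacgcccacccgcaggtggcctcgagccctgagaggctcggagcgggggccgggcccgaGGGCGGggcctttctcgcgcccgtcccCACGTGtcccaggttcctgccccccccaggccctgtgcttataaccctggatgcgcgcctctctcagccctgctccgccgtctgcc
Odc1, chr12:17544623-17544922, plus strand: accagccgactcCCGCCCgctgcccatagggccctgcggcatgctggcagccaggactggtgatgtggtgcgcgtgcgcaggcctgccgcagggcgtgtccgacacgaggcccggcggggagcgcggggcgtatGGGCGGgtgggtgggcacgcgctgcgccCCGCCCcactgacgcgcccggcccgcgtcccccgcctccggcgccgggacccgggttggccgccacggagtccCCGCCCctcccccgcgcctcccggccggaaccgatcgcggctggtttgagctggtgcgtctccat
The Ass1 window held 1 CACGTG, 36 bases before the start, and 1 GGGCGG. The Odc1 window held 4 GGGCGG and no CACGTG. Of 32851 promoter windows of this length, 7.15% held CACGTG and 35.7% held GGGCGG on either strand. A match in letters is not a site of binding, and the MYC-bound E-boxes known for Odc1 lie in its first intron, outside the window.

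The first docetaxel library held 69757257 counts, and the other 23 ranged from 21260781 to 28318784. The libraries numbered 2 stood apart from the others of their groups: Neat1, an RNA kept in the nucleus, was at 17.4% to 36.8% of the mean of the other libraries in 7 groups and at 77.8% in palbociclib. Values or test results without them are given for results found to rest on them. In DMSO Foxa1, a factor of the prostate lineage, was at 382 CPM (counts scaled to library size with TMM factors) and Hoxb13, another, at 34.6 CPM, whereas the epithelial gene Epcam and the prostate gene Pbsn had 0 counts. A count of 0 over the DMSO libraries allows up to 3 counts. In bulk libraries, fewer cells of a type and less RNA per cell cannot be told apart.

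All 9 genes passed the filter on low counts that left 15527 genes for testing. Arg1, Cps1 and Ass1 spanned the widest range of group means, 15.6-fold, 12.1-fold and 6.82-fold from the lowest to the highest. Arg2 spanned 3.09-fold on very few counts. Asl, Odc1, Srm, Sat1 and Sms spanned 1.93-fold, 1.65-fold, 1.54-fold, 1.41-fold and 1.28-fold. The largest differences therefore lay in arginine metabolism, and the polyamine enzymes differed by less than 2 times.

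**Figure D1:**
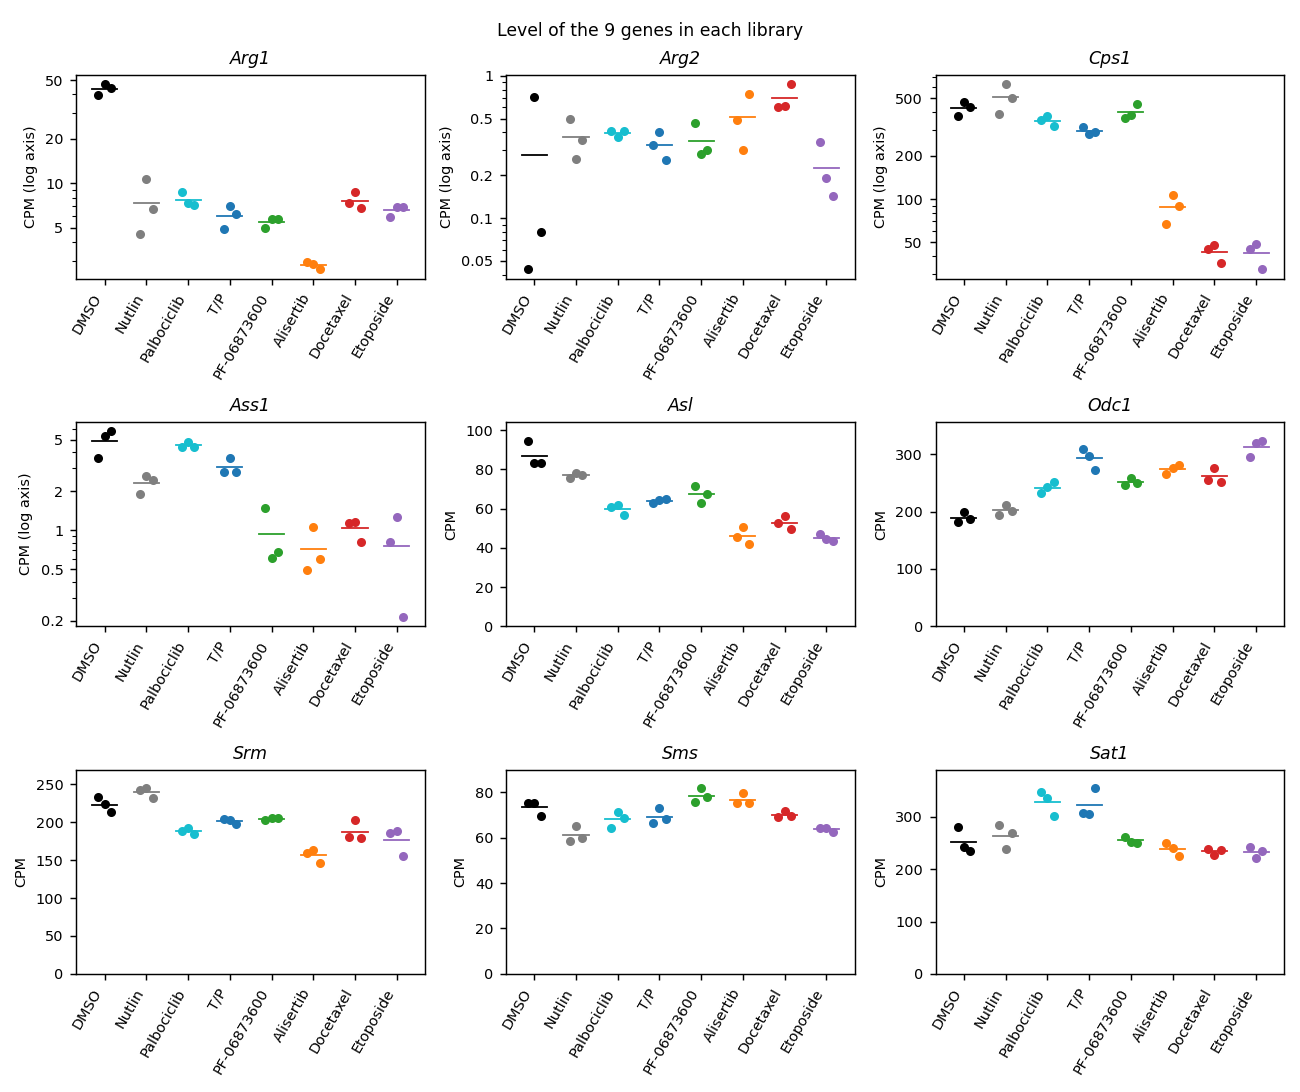
Level of each of the 9 genes in CPM by group, with a point for each of 3 libraries and a line at the group mean; Arg1, Arg2, Cps1 and Ass1 have log axes and the other axes start at 0. Arg1 is highest in the 3 DMSO libraries, Cps1 and Ass1 split the treatments, and Odc1 is lowest in DMSO and Nutlin.

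Arg1 (ENSMUSG00000019987.9, chromosome 10, 24915221 to 24927484, minus strand, mm10 with GENCODE vM21) encodes the cytosolic arginase of the liver urea cycle, which is also a marker of some macrophages. In DMSO it was at 39.7, 47.2 and 44.5 CPM. With alisertib it was at 2.96, 2.84 and 2.62 CPM. The alisertib libraries were the lowest of all 24 and did not overlap any other group.
Arg1 was at 5.01, 5.71 and 5.71 CPM with PF-06873600 and at 8.74, 7.35 and 7.14 CPM with palbociclib. With T/P it was at 4.89, 7.0 and 6.23 CPM. All of these lay below every control. T/P overlapped PF-06873600 and lay just under palbociclib.
With docetaxel Arg1 was at 7.34, 8.69 and 6.80 CPM, and with etoposide at 5.91, 6.97 and 6.94 CPM. With Nutlin it was at 4.58, 10.8 and 6.75 CPM. Nutlin had the widest spread, and all 3 groups again lay below every DMSO library.

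From the lowest to the highest mean, Arg1 ran alisertib 2.81 ± 0.18 (SD, n = 3), PF-06873600 5.48 ± 0.41, T/P 6.04 ± 1.07, etoposide 6.61 ± 0.60, Nutlin 7.39 ± 3.17, docetaxel 7.61 ± 0.98, palbociclib 7.74 ± 0.88 and DMSO 43.8 ± 3.78 CPM. Neighbours between PF-06873600 and palbociclib in this order overlapped, while alisertib at one end and DMSO at the other stood clear. The log2 difference from DMSO was -3.96 ± 0.20 (SE) for alisertib and -3.0 ± 0.19 for PF-06873600. It was -2.86 ± 0.19 for T/P, -2.73 ± 0.18 for etoposide and -2.56 ± 0.19 for Nutlin. It was -2.53 ± 0.18 for docetaxel and -2.50 ± 0.18 for palbociclib. Arg1 was thus lower in all 7 treatments, and each of these comparisons uses the same 3 DMSO libraries.

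The summed level of the epithelial genes Epcam, Cdh1, Krt8 and Krt18 was 34.3 to 37.7 CPM in DMSO, nearly all of it Krt8, and 4.03 to 17.5 CPM over the treated libraries. DMSO had the highest Arg1 and the highest sum, and alisertib the lowest of both, with a sum of 4.03 to 5.76 CPM. Between these ends the order differed: PF-06873600 had the second lowest Arg1 and the highest sum of the treatments, 14.8 to 17.5 CPM. Cdh1 was at 0.123 CPM in DMSO and at 0.366, 0.971 and 0.509 CPM with alisertib, docetaxel and etoposide, the other way from Krt8. Krt18, at 0.535 CPM in DMSO, was at 0.123, 0.203 and 0.1 CPM with these drugs, the same way as Krt8. The part of this list in the Arg1 result was not tested. The 6 macrophage genes summed to 1.24 to 2.79 CPM in DMSO, where Adgre1, Csf1r and Mrc1 had 0 counts and Ptprc had 1. That sum was between 1.47 and 4.73 CPM over the treated libraries, and only Nutlin, PF-06873600 and T/P overlapped DMSO. The 5 fibroblast genes summed to 13.5 to 22.0 CPM in DMSO and 10.6 to 29.3 CPM over the treated libraries, nearly all Pdgfra. The parts of the last 2 lists were not tested either.

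Arg2 (ENSMUSG00000021125.6, chromosome 12, 79130777 to 79156301, plus strand) encodes the mitochondrial arginase. It had 1, 17 and 2 counts in the 3 DMSO libraries and 4 to 46 counts in the treated ones. In CPM it was 0.0436, 0.705 and 0.0797 in DMSO. The second DMSO library alone set the level of that group.
Treated libraries lay between 0.142 CPM, with etoposide, and 0.878 CPM, with docetaxel. The log2 difference from DMSO was between -0.30 ± 0.65 (SE), with etoposide, and 1.30 ± 0.56, with docetaxel, and no treatment stood clear of the DMSO range. Without the second DMSO library it was 1.77 for etoposide and 3.35 for docetaxel. That library thus decides the size in every treatment. Whether Arg2 passes the test counted below changed without it in all 7 comparisons. With docetaxel this also changed under total counts and with a replicate block. The sign turned in 2 of 13 alternatives each for PF-06873600, T/P, etoposide and Nutlin, so no direction is read there. The exons of Arg2 share 285 bases with Vti1b and 116 with Gm48780 on the other strand. The strand setting of the counting is not given in the sources used here.

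Per transcript length, in the deposited TPM values, Arg1 stood at 55.1 ± 5.41 (SD, n = 3) in DMSO and Arg2 at 0.534 ± 0.711. Arg1 was therefore the main arginase transcript in the control cells. With etoposide Arg1 was at 9.57 ± 1.1 TPM and Arg2 at 0.509 ± 0.239 TPM, so Arg1 remained the higher of the pair.

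Cps1 (ENSMUSG00000025991.8, chromosome 1, 67123026 to 67231259, plus strand) encodes the enzyme of the first, mitochondrial step of the urea cycle. The gene is known mainly from liver and intestine. In DMSO it was at 375, 475 and 438 CPM. With etoposide it was at 44.8, 48.6 and 32.4 CPM, and with docetaxel at 45.3, 48.1 and 36.1 CPM. Etoposide and docetaxel overlapped each other and lay below all other groups.
Alisertib came next, with 67.3, 107 and 89.3 CPM. PF-06873600 had 364, 384 and 460 CPM and palbociclib 353, 380 and 321 CPM, both overlapping DMSO. T/P had 315, 285 and 293 CPM, below the lowest control.
Nutlin had 390, 632 and 503 CPM, the highest group mean, and overlapped DMSO. Cps1 thus fell into a low range with alisertib, docetaxel and etoposide, 32.4 to 107 CPM, and a high range of 285 to 632 CPM in the other 5 groups, with no library between them.

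The log2 difference of Cps1 from DMSO was -3.36 ± 0.18 (SE) for etoposide, -3.31 ± 0.18 for docetaxel and -2.29 ± 0.17 for alisertib. It was -0.53 ± 0.17 for T/P, -0.29 ± 0.17 with palbociclib, -0.09 ± 0.17 with PF-06873600 and 0.24 ± 0.17 with Nutlin. The T/P difference was -0.47 without the second DMSO library and -0.42 without any library numbered 2. In either case Cps1 would drop out of the member counts given below for T/P. In order of mean, etoposide at 41.9 ± 8.47 and docetaxel at 43.1 ± 6.29 CPM did not differ beyond their spread, and alisertib at 88.0 ± 20 CPM did not overlap them. T/P at 298 ± 15.6, palbociclib at 352 ± 29.6, PF-06873600 at 403 ± 50.9, DMSO at 429 ± 50.3 and Nutlin at 509 ± 121 CPM followed, and each pair of neighbours overlapped except T/P and palbociclib.

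**Figure D2:**
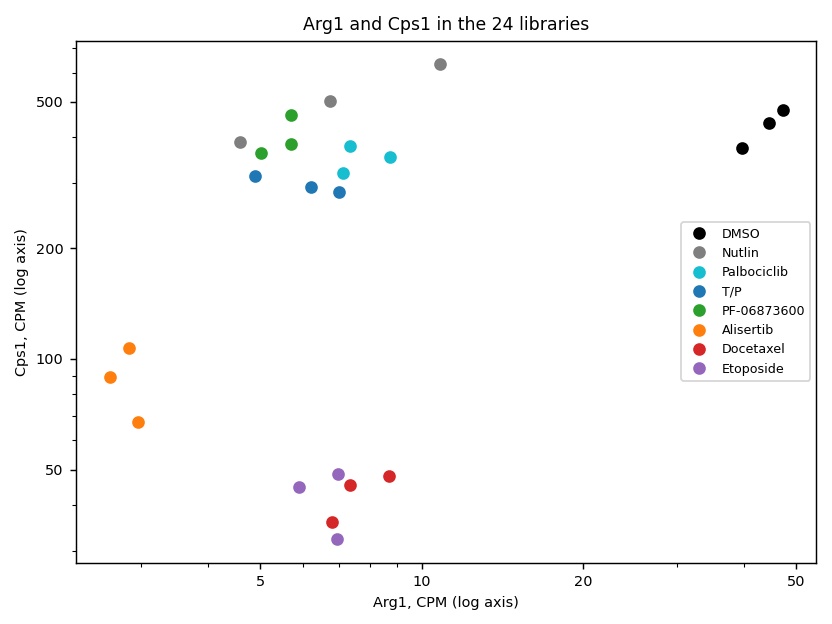
Level of Arg1 (x axis) against Cps1 (y axis) in CPM on log axes, with a point for each of the 24 libraries coloured by group. DMSO stands alone at high Arg1; alisertib, docetaxel and etoposide are low in both, and Nutlin, palbociclib, T/P and PF-06873600 are low in Arg1 with Cps1 at 285 CPM or more.

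The plot of Arg1 against Cps1 shows the 2 patterns side by side. Every treated library was at 10.8 CPM of Arg1 or less, against at least 39.7 CPM in DMSO. The alisertib, docetaxel and etoposide libraries were at 107 CPM of Cps1 or less, and the other treated libraries at 285 CPM or more. Hepatocyte markers did not take the same order as Cps1: Alb, Apoa1, Ttr, Tat and Serpina1c summed to 2.75 to 3.83 CPM in DMSO and 1.85 to 2.49 CPM with etoposide. They summed to 16.6 to 17.8 CPM with docetaxel, where Cps1 was low, nearly all from Ttr at 11.3 CPM and Tat at 5.51 CPM. Alb had 3 counts over the DMSO libraries. The part of these genes in the Cps1 result was not tested.

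Ass1 (ENSMUSG00000076441.9, chromosome 2, 31470207 to 31520672, plus strand) encodes argininosuccinate synthase, which many tumours are known to silence. It had 82, 128 and 145 counts in DMSO, or 3.58, 5.31 and 5.78 CPM. With palbociclib it was at 4.41, 4.81 and 4.41 CPM, within the range of the controls. With T/P it was at 2.81, 3.60 and 2.82 CPM, overlapping only the lowest control.
Nutlin came lower, at 1.89, 2.60 and 2.43 CPM. PF-06873600 had 1.49, 0.603 and 0.681 CPM, and docetaxel 1.14, 1.15 and 0.804 CPM. Etoposide and alisertib were lowest.
Alisertib had 0.487, 1.06 and 0.601 CPM, and etoposide 0.801, 1.26 and 0.213 CPM. The last of these libraries held 6 counts, so counting error is large there. PF-06873600, docetaxel, etoposide and alisertib overlapped one another and lay below the remaining 4 groups.

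The log2 difference of Ass1 from DMSO was -2.77 ± 0.38 (SE) for alisertib, -2.69 ± 0.38 for etoposide, -2.40 ± 0.37 for PF-06873600 and -2.22 ± 0.35 for docetaxel. It was -1.08 ± 0.34 for Nutlin, -0.67 ± 0.33 for T/P and -0.11 ± 0.32 for palbociclib. The Nutlin difference ranged from -1.25 to -0.93 when 1 library was left out. In 4 of these cases (without DMSO 2, DMSO 3, Nutlin 1 or Nutlin 3) Ass1 would drop out of the member counts given below for Nutlin. Palbociclib and PF-06873600, both inhibitors of CDK4 and CDK6, were given at 1 µM and 500 nM. At these unequal doses Ass1 was at 4.55 ± 0.23 (SD, n = 3) and 0.923 ± 0.489 CPM, while Arg1 was at 7.74 ± 0.88 and 5.48 ± 0.41 CPM.

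Asl (ENSMUSG00000025533.15, chromosome 5, 130011258 to 130029247, minus strand) encodes argininosuccinate lyase, which releases arginine. DMSO had 94.7, 83.4 and 83.1 CPM and Nutlin 75.7, 78.3 and 77.2 CPM. PF-06873600 had 71.5, 62.7 and 67.6 CPM, T/P 62.9, 64.4 and 65.1 CPM and palbociclib 60.7, 61.7 and 57.0 CPM. Docetaxel had 52.8, 56.3 and 49.7 CPM, alisertib 45.5, 50.5 and 41.8 CPM and etoposide 47.1, 44.7 and 43.3 CPM.
Every treated library was below every control, with the smallest gap in Nutlin and the largest in etoposide. The log2 difference was -0.95 ± 0.07 (SE) for etoposide, -0.92 ± 0.07 for alisertib and -0.72 ± 0.07 for docetaxel. It was -0.54 ± 0.07 for palbociclib, -0.44 ± 0.07 for T/P, -0.37 ± 0.07 for PF-06873600 and -0.17 ± 0.07 for Nutlin. Alisertib, docetaxel and etoposide, the groups with the lowest Cps1, thus had the lowest Asl too.

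Odc1 (ENSMUSG00000011179.8, chromosome 12, 17544794 to 17551505, plus strand) encodes ornithine decarboxylase, the rate-limiting enzyme of polyamine synthesis. It was the member that stood above the controls in most treatments. DMSO had 182, 200 and 187 CPM and Nutlin 194, 212 and 202 CPM. These groups overlapped.
Palbociclib had 232, 243 and 251 CPM, PF-06873600 247, 258 and 250 CPM and docetaxel 256, 277 and 252 CPM. Alisertib had 266, 277 and 281 CPM and T/P 309, 298 and 272 CPM. Etoposide was highest, with 296, 320 and 324 CPM.
All libraries of these 6 groups were above all DMSO and all Nutlin libraries.

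The log2 difference of Odc1 from DMSO was 0.73 ± 0.06 (SE) for etoposide, 0.63 ± 0.06 for T/P and 0.54 ± 0.06 for alisertib. It was 0.47 ± 0.06 for docetaxel, 0.41 ± 0.06 for PF-06873600, 0.35 ± 0.06 for palbociclib and 0.10 ± 0.06 for Nutlin. In order of mean, each of the 6 higher groups overlapped the next one, from palbociclib at 242 ± 9.80 (SD, n = 3) to etoposide at 314 ± 15 CPM. Etoposide thus had the highest Odc1 and the lowest Asl.

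**Figure D3:**
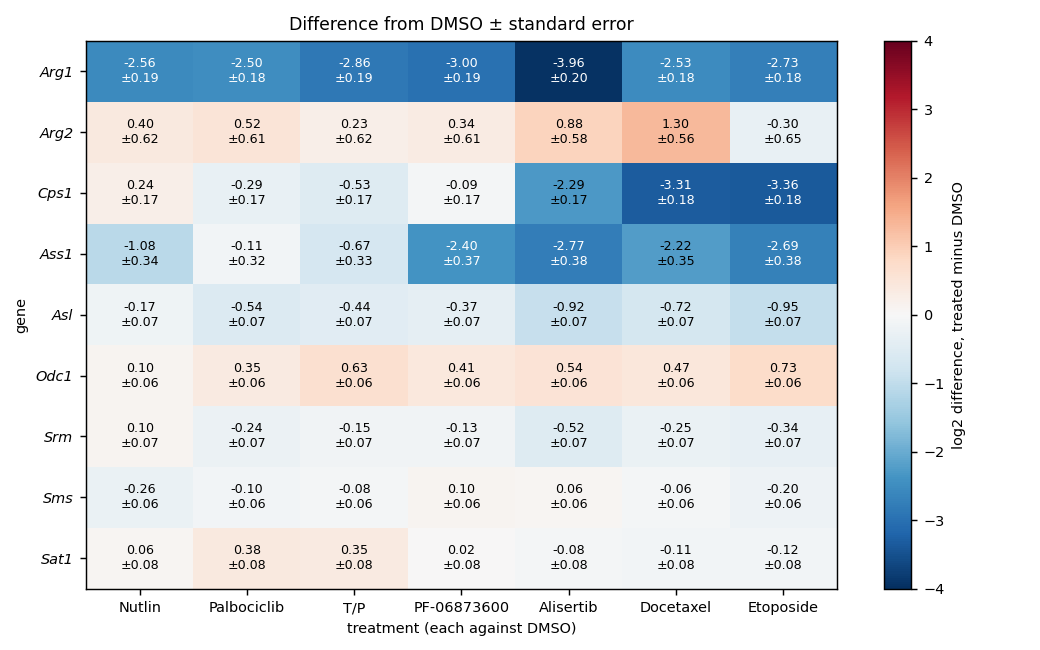
Log2 difference of each of the 9 genes (rows) between each treatment and DMSO (columns), with its standard error from the edgeR fit (3 libraries a group) printed in each cell and its size as colour. Arg1 is below DMSO in all 7 columns, Cps1 is lowest with etoposide at -3.36, and Odc1 is highest with etoposide at 0.73.

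Srm (ENSMUSG00000006442.10, chromosome 4, 148591503 to 148594993, plus strand) encodes spermidine synthase. DMSO had 233, 224 and 213 CPM, and alisertib had 159, 164 and 146 CPM, the lowest group mean. Etoposide had 186, 188 and 155 CPM, docetaxel 180, 203 and 179 CPM and palbociclib 188, 193 and 185 CPM. T/P with 198 to 204 CPM and PF-06873600 with 203 to 205 CPM were also below the controls.
Nutlin had 243, 245 and 232 CPM and overlapped DMSO. The log2 difference was -0.52 ± 0.07 (SE) for alisertib, -0.34 ± 0.07 for etoposide, -0.25 ± 0.07 for docetaxel and -0.24 ± 0.07 for palbociclib. It was -0.15 ± 0.07 for T/P, -0.13 ± 0.07 for PF-06873600 and 0.10 ± 0.07 for Nutlin. When libraries were scaled by total counts alone it was -0.32 for alisertib, -0.13 for etoposide, -0.15 for palbociclib, -0.05 for docetaxel and -0.04 for PF-06873600. Under TMM scaling Srm was thus below every control in the 6 treatments in which Odc1 was above every control.

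Sms (ENSMUSG00000071708.11, chromosome X, 157443855 to 157492287, minus strand) encodes spermine synthase. DMSO had 75.1, 75.4 and 69.5 CPM. Nutlin with 58.5, 65.2 and 59.9 CPM and etoposide with 64.4, 64.4 and 62.5 CPM were below every control, and PF-06873600 with 75.9, 81.8 and 78.0 CPM was above them.
The log2 difference was -0.26 ± 0.06 (SE) for Nutlin and 0.10 ± 0.06 for PF-06873600. It was -0.20 ± 0.06 for etoposide, a value that turned to 0.011 when libraries were scaled by total counts alone and to 0.005 in the ratio of deposited TPM. The other 4 treatments lay between -0.10 and 0.06 and overlapped DMSO. Sms has a processed copy, Sms-ps, also on chromosome X, and the handling of reads with several alignments is not given in the sources used here.

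Sat1 (ENSMUSG00000025283.15, chromosome X, 155213132 to 155216449, minus strand) encodes spermidine and spermine acetyltransferase. DMSO had 280, 243 and 234 CPM. Palbociclib had 348, 337 and 301 CPM and T/P 307, 305 and 355 CPM, both above every control and overlapping each other.
The log2 difference was 0.38 ± 0.08 (SE) for palbociclib and 0.35 ± 0.08 for T/P. PF-06873600, the other inhibitor of CDK4 and CDK6, had 261, 253 and 251 CPM and a difference of 0.02 ± 0.08. Alisertib, docetaxel, etoposide and Nutlin had 222 to 284 CPM and overlapped the controls.

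Counted by the same edgeR test that was run over all genes (Benjamini-Hochberg adjusted p under 0.05), these members passed in the following numbers. Nothing is read from the counts, because the members were chosen on these contrasts. With PF-06873600 1 member was higher and 3 were lower, where 17.9% of all tested genes were called higher and 14.1% lower. With palbociclib 2 were higher and 3 lower, beside 18.5% and 17.4% of all genes. With T/P 2 were higher and 3 lower, beside 15.1% and 14.6%.
With alisertib 1 was higher and 5 were lower, where 27.8% of all genes were called higher and 26.1% lower. With docetaxel 1 was higher and 5 lower, beside 26.5% and 22.5%. With etoposide 1 was higher and 6 lower, beside 27.7% and 26.9%. With Nutlin none was higher and 3 were lower, beside 8.02% and 11.4%. Under scaling by total counts Srm would drop out with docetaxel and Sms with etoposide, and Sms would count as higher with PF-06873600, alisertib and docetaxel. Sms with etoposide would also drop out without the low-count filter and in a fit of the 2 groups.
Between T/P and palbociclib, 1 member was higher with T/P and none lower, beside 1.64% and 2.47% of all genes. That member was Odc1, at 272 to 309 CPM with T/P and 232 to 251 CPM with palbociclib, a log2 difference of 0.27 ± 0.06 (SE). It missed the test without all libraries numbered 2, where the difference was 0.28, and when either the first or the second library of either group was left out, at 0.24 to 0.29. Arg1, Cps1 and Ass1 were at -0.36 ± 0.19, -0.24 ± 0.17 and -0.56 ± 0.33 in this comparison and Sat1 at -0.03 ± 0.08.

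Compared per transcript length in DMSO, Srm was the most abundant of the 9 at 391 ± 8.02 TPM (SD, n = 3). Sat1 at 254 ± 19.8, Cps1 at 217 ± 27.3 and Odc1 at 156 ± 8.29 TPM came next. Arg1 at 55.1 ± 5.41, Asl at 50.4 ± 3.22 and Sms at 34.2 ± 0.32 TPM were lower, and Ass1 at 5.70 ± 1.5 and Arg2 at 0.534 ± 0.711 TPM were lowest. Ass1 was therefore the scarcest of the 3 urea cycle transcripts in control cells. Arg1 and Asl overlapped, while Srm, Sat1, Cps1 and Odc1 did not overlap one another. With etoposide Odc1 was at 298 ± 28.3 TPM and overlapped Sat1 at 272 ± 29.3 TPM, below Srm at 355 ± 21.4 TPM, while Cps1 was at 24.2 ± 3.42 TPM.

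The genes most like Arg1, Cps1 and Odc1 were sought by Pearson's r of log2 CPM over the 24 libraries, among 8877 genes whose mean reached 10 CPM. The libraries share their groups and scaling, so r describes a likeness over 8 groups and has no p. For Arg1 they were the keratin genes Krt4 (r = 0.94) and Krt78 (0.93), the oxygen-sensing hydroxylase gene Egln1 (0.92), the peptidylarginine deiminase gene Padi1 (0.92) and the corepressor gene Rcor2 (0.90). Krt4 was at 629 CPM in DMSO, 184 CPM with Nutlin and 111 CPM with etoposide. Krt78 was at 94.5, 14.4 and 8.18 CPM in the same groups.
For Cps1 they were Paqr7 (r = 0.96), Rnft1 (0.95), the p53 target gene Ccng1 (0.95), Rubcn (0.95) and the cysteine dioxygenase gene Cdo1 (0.95). Cdo1 was at 563 CPM in DMSO, 723 CPM with Nutlin and 303 CPM with etoposide. For Odc1 they were Dhx37 (r = 0.96), Txndc16 (0.95), Bid (0.94), Lactb (0.94) and the carbonic anhydrase gene Car13 (0.94). Car13 was at 7.67 CPM in DMSO, 7.11 CPM with Nutlin and 24.9 CPM with etoposide, so like Odc1 it differed little between DMSO and Nutlin.

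Around the 9 genes, 56 further genes of arginine, nitrogen, ornithine and polyamine metabolism were listed in 8 groups by their textbook roles, and 49 of them had enough counts to be tested. The lists were drawn up with earlier results of these data known, so their calls, p-values and shares are no independent test. Called here means an adjusted p under 0.05 in edgeR's quasi-likelihood test over all genes. Of the 49, 9 rose and 9 fell with PF-06873600 (18.4% and 18.4%, beside 17.9% and 14.1% of all genes). With palbociclib 10 rose and 12 fell (20.4% and 24.5%, beside 18.5% and 17.4%). With T/P 13 rose and 8 fell (26.5% and 16.3%, beside 15.1% and 14.6%), and with Nutlin 8 rose and 8 fell (16.3% each, beside 8.02% and 11.4%). With alisertib 12 rose and 18 fell (24.5% and 36.7%, beside 27.8% and 26.1%). With docetaxel 7 rose and 17 fell (14.3% and 34.7%, beside 26.5% and 22.5%), and with etoposide 11 rose and 15 fell (22.4% and 30.6%, beside 27.7% and 26.9%). Several of these shares were near those of all genes. Their median log2 change lay between -0.10 (alisertib) and 0.11 (T/P), while that of all genes lay between 0.00 and 0.04. No test of the lists as a whole was made. Without the libraries numbered 2, 13 of the 49 passed with PF-06873600, 19 with palbociclib, 16 with T/P, 13 with Nutlin, 29 with alisertib, 23 with docetaxel and 25 with etoposide.

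**Figure D4:**
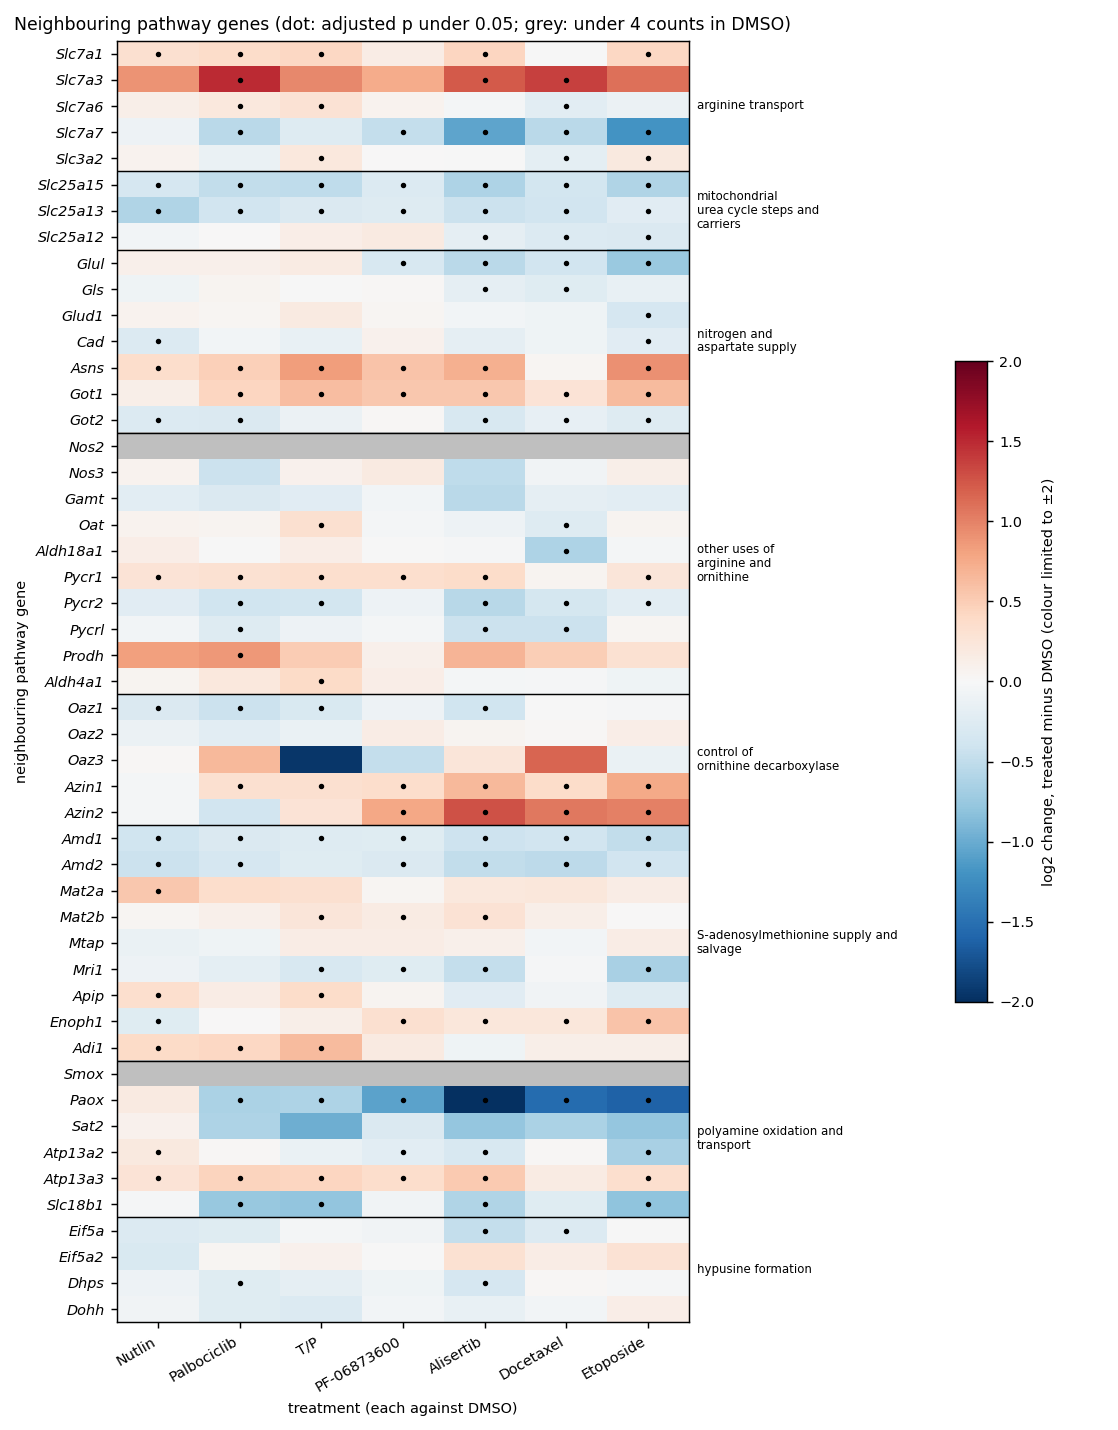
Log2 change between each treatment and DMSO (columns) for the 49 tested genes of the 8 neighbouring lists (rows), from the edgeR fit with 3 libraries a group; colour is limited to plus or minus 2, dots mark adjusted p under 0.05, and Nos2 and Smox are grey because they had 3 counts over the DMSO libraries. Amd1, Slc25a15 and Slc25a13 are lower in all 7 columns, and Paox, Azin1 and Got1 carry dots in 6.

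Otc and Nags, which belong to the mitochondrial part of the urea cycle, were at or near the limit of counting. Otc, for ornithine transcarbamylase, had 0 of 651174501 counts in the 24 libraries, which allows up to 0.00461 CPM, and Nags, whose product makes the activator of CPS1, had 3. Of the 3 mitochondrial carriers, Slc25a15, which exchanges ornithine and citrulline, fell in 7 of 7 treatments, most with alisertib (log2 -0.62 ± 0.09 SE, adjusted p = 4.53e-06 in edgeR). Slc25a13, which carries aspartate and glutamate, also fell in 7 of 7, most with Nutlin (-0.60 ± 0.10, adjusted p = 9.96e-05 in edgeR). Its sister carrier Slc25a12 fell with docetaxel, etoposide and alisertib. These falls were small. Under scaling by total counts alone, Slc25a15 missed the test with docetaxel (-0.16) and PF-06873600 (-0.17), Slc25a13 with docetaxel (-0.17), PF-06873600 (-0.17) and etoposide (-0.02), and Slc25a12 with docetaxel (-0.07) and etoposide (-0.07). With 1 library left out, Slc25a15 could miss the test with PF-06873600 (without DMSO 2 or PF-06873600 1) and Nutlin (without DMSO 2 or Nutlin 1), and Slc25a13 with PF-06873600, T/P and etoposide (without DMSO 2, among others). Without all libraries numbered 2, Slc25a15 missed the test with PF-06873600, and Slc25a13 with PF-06873600, T/P and etoposide. The change of Slc25a12 with alisertib (-0.18 ± 0.07) became 0.011 under scaling by total counts and missed the test without DMSO 1, DMSO 3, Alisertib 1 or Alisertib 2. It missed it in 10 of 14 alternatives, which include DESeq2, RLE factors, other filters and a fit of the 2 groups. Slc25a13 with etoposide missed it in 9 of 14, which include DESeq2, RLE factors and the fit of the 2 groups. In that kind of fit Slc25a15 with Nutlin and Slc25a13 with T/P missed it too.

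Among 5 tested arginine transporter genes, Slc7a1, the main importer of arginine in many cells, rose in 5 of 7 treatments by 0.32 to 0.43 on the log2 scale. With T/P it rose by 0.41 ± 0.09 (SE, adjusted p = 0.0017 in edgeR). It missed the test with palbociclib without DMSO 1, and with Nutlin without DMSO 1, Nutlin 2 or all libraries numbered 2. It was at -0.01 ± 0.09 with docetaxel and 0.15 ± 0.09 with PF-06873600. Slc7a7, part of an exporter of arginine, fell in 5 of 7, most with etoposide (-1.20 ± 0.14, adjusted p = 9.06e-08 in edgeR) and alisertib (-1.05 ± 0.13, adjusted p = 6.81e-07).
In the list for nitrogen and aspartate supply, Asns, the asparagine synthetase gene, rose in 6 of 7 treatments, most with etoposide (0.91 ± 0.09, adjusted p = 1.5e-08 in edgeR), and was at 0.04 ± 0.09 with docetaxel. The rise with Nutlin missed the test without Nutlin 2. Got1, for the cytosolic aspartate aminotransferase, rose in 6 of 7, most with etoposide (0.63 ± 0.06, adjusted p = 5.3e-09 in edgeR). Glul, for glutamine synthetase, fell with PF-06873600, alisertib, docetaxel and etoposide, the 4 groups in which Ass1 was lowest. Its change with etoposide was -0.74 ± 0.07 (adjusted p = 7.8e-09 in edgeR).

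Among 10 tested genes of other uses of arginine and ornithine, Nos2, the inducible nitric oxide synthase gene, competes with arginase for arginine. It had 3 counts over the DMSO libraries, or 0.0414 CPM, and is given by level only. It was at 1.94 ± 0.45 CPM (SD, n = 3) with alisertib, 1.78 ± 0.45 CPM with etoposide and 1.26 ± 0.06 CPM with docetaxel. These levels passed the edgeR test with adjusted p = 1.84e-06, 2.36e-06 and 1.78e-05. PF-06873600, at 0.300 ± 0.249 CPM on 23 counts, passed it too (adjusted p = 0.0271 in edgeR). That call was not among those checked under other settings. Nos2 entered the test through the groups in which it was high, and it passed in 4 of 7 treatments. Of these 4 groups, PF-06873600 had Cps1 in the range of the controls. The libraries of Nutlin, palbociclib and T/P had 1 to 5 counts a group.
Oat, whose product turns ornithine towards proline, rose with T/P (0.32 ± 0.07, adjusted p = 0.00132 in edgeR) and fell with docetaxel (-0.26 ± 0.07, adjusted p = 0.00466 in edgeR). The docetaxel change was -0.05 and missed the test under scaling by total counts. Oat passed in no other comparison with DMSO. Aldh18a1, which makes the precursor of proline and ornithine from glutamate, fell with docetaxel (-0.62 ± 0.08, adjusted p = 4.99e-07 in edgeR).

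In the list for the control of ornithine decarboxylase, the antizymes (Oaz genes) bind the enzyme and send it to the proteasome, and the antizyme inhibitors (Azin genes) free it. Azin1 rose in the same 6 treatments in which Odc1 stood above DMSO, most with etoposide (0.76 ± 0.08 SE, adjusted p = 1.62e-08 in edgeR) and alisertib (0.65 ± 0.08, adjusted p = 2.21e-07). It was at -0.04 ± 0.08 with Nutlin. Azin2 rose with PF-06873600, alisertib, docetaxel and etoposide, by 0.77 to 1.27.
Oaz1 fell with palbociclib, T/P, alisertib and Nutlin, by 0.42 ± 0.09 with palbociclib (adjusted p = 0.000768 in edgeR). With Nutlin it missed the test without DMSO 1, DMSO 2, Nutlin 1 or Nutlin 3. Oaz2 passed in none of the 7, with differences between -0.22 and 0.15.

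Of 9 tested genes of S-adenosylmethionine supply and salvage, Amd1, for the decarboxylase that supplies the aminopropyl groups of spermidine and spermine, fell in 7 of 7 treatments. The fall was 0.24 on the log2 scale with PF-06873600 and largest with etoposide (-0.49 ± 0.07 SE, adjusted p = 1.42e-06 in edgeR). Without all libraries numbered 2 the falls with PF-06873600 and T/P missed the test, and under scaling by total counts those with docetaxel (-0.17) and PF-06873600 (-0.15). Its near copy Amd2 fell with alisertib, docetaxel and Nutlin among others, and reads may be shared by the pair. Mri1, a methionine salvage gene, fell most with etoposide (-0.64 ± 0.09, adjusted p = 2.94e-06 in edgeR), and Adi1, another, rose most with T/P (0.63 ± 0.08, adjusted p = 8.35e-07 in edgeR). Enoph1 rose most with etoposide (0.57 ± 0.08, adjusted p = 1.18e-06 in edgeR).

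Of 6 tested genes of polyamine oxidation and transport, Paox, for the oxidase that acts on the acetylated polyamines made by SAT1, fell in every treatment except Nutlin. It was at 10.4 ± 0.20 CPM (SD, n = 3) in DMSO and changed by -2.03 ± 0.14 (SE) with alisertib (adjusted p = 5.39e-11 in edgeR). The change was -1.62 ± 0.14 with etoposide, -1.54 ± 0.14 with docetaxel and -1.07 ± 0.14 with PF-06873600. It was -0.63 ± 0.13 with palbociclib and -0.61 ± 0.13 with T/P, the treatments in which Sat1 was above DMSO.
Smox, for spermine oxidase, had 3 counts over the DMSO libraries, or 0.0422 CPM. It was at 0.878 ± 0.301 CPM (SD, n = 3) with alisertib, 0.603 ± 0.214 CPM with etoposide and 0.355 ± 0.037 CPM with docetaxel, which passed the edgeR test with adjusted p = 7.81e-05, 0.000473 and 0.00619. In the other treatments it had 2 to 12 counts and did not pass. Atp13a3, a polyamine importer gene, rose in 6 of 7 treatments, most with alisertib (0.52 ± 0.09, adjusted p = 2.72e-05 in edgeR). It rose by 0.45 ± 0.09 with palbociclib and 0.43 ± 0.09 with T/P. With PF-06873600 (0.35) it missed the test without DMSO 1. With Nutlin (0.27) it missed it without DMSO 1, Nutlin 2, Nutlin 3 or all libraries numbered 2, and in a fit of the 2 groups.
Of the 4 genes of hypusine formation, in which spermidine modifies the translation factor eIF5A, Eif5a fell with alisertib (-0.47 ± 0.10, adjusted p = 0.000624 in edgeR) and docetaxel (-0.27 ± 0.10, adjusted p = 0.0344 in edgeR). Dhps, the first enzyme of that reaction, fell with alisertib (-0.33 ± 0.07, adjusted p = 0.000635 in edgeR) and palbociclib (-0.24 ± 0.07, adjusted p = 0.0149 in edgeR). The docetaxel change of Eif5a and both changes of Dhps missed the test when libraries were scaled by total counts alone. With 1 library left out, the first was lost without DMSO 1, DMSO 2, Docetaxel 1 or Docetaxel 3, and that of Dhps with palbociclib without Palbociclib 3. The change of Dhps with palbociclib also missed the test without all libraries numbered 2.

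Between T/P and palbociclib, 4 of the 49 rose and none fell, or 8.16% beside 1.64% of all genes higher and 2.47% lower. They were Slc3a2, the shared chain of several amino acid transporters, Asns, Oat and Azin2, and the change of Slc3a2 was 0.34 ± 0.07 (SE, adjusted p = 0.0105 in edgeR). Without the libraries numbered 2 none of the 49 passed, and the same held without the second T/P library alone.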

How the data were processed

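The submitters' processing notes name fastp, STAR, featureCounts, DESeq2 and the build mm10, without versions or settings. The strand setting and annotation are not given in the sources used here. The deposited tables hold raw counts for 55487 genes and TPM for 24621 genes by the authors. Exact IDs matched GENCODE vM21 for 54435 genes, which gave positions.

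Counts were tested in R 4.3.3 with edgeR 4.0.16: 1 quasi-likelihood fit of all 24 libraries with group means, TMM factors and 16 residual degrees of freedom, two-sided, with Benjamini-Hochberg adjustment over the 15527 genes left by filterByExpr (minimum count 10, minimum total 15), which hold 99.9% of counts. Levels are CPM on TMM library sizes. TPM served to compare genes and, as a ratio, as an alternative for the members. The spread behind the p-values is that among these libraries alone and may be technical. The members and lists were chosen with earlier results of these data known. Besides the members, named genes are 8 fixed ones and, per comparison, up to 3 called genes of each list with the largest change and at least 1 CPM. Genes with under 4 counts in a group are given by level.

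Pairs of libraries within a group differed by a chi-square of 2.78 to 49.3 per degree of freedom, so none was a copy. Libraries with equal numbers deviated together (r above 0.1 at all 3 numbers) for PF-06873600, alisertib and etoposide against DMSO. These r were 0.117, 0.31 and 0.155 for PF-06873600, 0.219, 0.325 and 0.208 for alisertib, and 0.17, 0.352 and 0.186 for etoposide. Docetaxel (0.088, 0.36 and 0.166), Nutlin (0.179, 0.396 and 0.07) and T/P (-0.018, 0.31 and 0.112) fell short of this cut but were high at number 2. Palbociclib had 0.039, 0.095 and 0.091. The labels give the numbers alone. The main fit did not use this pairing, so its standard errors and p-values are unpaired. With a replicate block, 5992 genes were called in place of 4963 for PF-06873600. For alisertib 9332 were called in place of 8371, and for etoposide 9343 in place of 8485. The block also raised the calls for docetaxel (8597 in place of 7608) and Nutlin (4145 in place of 3011). For palbociclib 6834 were called in place of 5574, and for T/P 5670 in place of 4605. The pipeline was tested on simulated counts. Alternatives were RLE factors, total counts, DESeq2 1.42.0, other filters, fits of 2 groups, a replicate block, the ratio of TPM for members, and leaving out libraries.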

Additional observations from a re-analysis of the deposited data

How the results depend on the processing

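Scaling by total counts alone shifted the median log2 of all genes by 0.20 (alisertib), 0.21 (docetaxel) and 0.21 (etoposide) and by under 0.1 elsewhere. It moved the share of calls that were higher from 56.0% to 72.0% for PF-06873600, 51.5% to 65.6% for palbociclib, 51.5% to 71.8% for alisertib, 54.2% to 78.4% for docetaxel and 50.7% to 71.6% for etoposide. Under it the log2 change turned sign for Slc25a12 with alisertib (0.011), Oaz1 with docetaxel (0.195) and etoposide (0.186), Eif5a with etoposide (0.2) and Sms with etoposide (0.011, and 0.005 as a ratio of TPM). Sms with docetaxel (0.145) and Sat1 with alisertib (0.117), docetaxel (0.1) and etoposide (0.099) turned too. In all, 19 of 244 values of the members and named genes turned, 17 of them from within 0.12 of 0. The cause was not tested.
For Nutlin against DMSO, 3011 genes were called: 1699 in a fit of the 2 groups, where 5 of the neighbouring genes passed in place of 16, and 2002 to 3459 with 1 library left out (9 to 16 neighbouring genes). For T/P against palbociclib, 637 genes were called: 1145 by DESeq2, 1181 without the low-count filter, 1165 in a fit of the 2 groups, 411 without the libraries numbered 2 and 154 to 480 with 1 library left out. With the replicate block, 2504 genes and 9 of the neighbouring genes passed there, in place of 4 neighbouring genes; that number was 0 without the libraries numbered 2, and 0 to 4 with 1 library left out. The replicate block moved no other count by over 1.5 times. The depth limits Arg2 and Ass1, at 1 to 145 counts a library.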
